A study of Mus musculus with 12 samples.

Results

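Immediate early genes and the NR4A genes are the transcripts that cells make first after a signal, and 10 of them are described here in inguinal white adipose tissue (iWAT) of mice kept warm or cold. They are the NR4A nuclear receptors Nr4a1, Nr4a2 and Nr4a3, the AP-1 genes Fos, Fosb, Jun and Junb, the zinc finger genes Egr1 and Egr2, and Crem. The members were chosen by symbol in the table of raw read counts, and all 10 of 10 were found among its 23420 genes and passed the filter on low counts that left 15306 genes. RNA of whole iWAT was sequenced from 12 male C57BL/6 mice of 10 weeks of age, 3 in each of 4 groups. All mice carried loxP-flanked Hif2a alleles, and mice without Cre were the WT. HIF2α AKO mice carried Adipoq-Cre as well, which acts in adipocytes and not in the other cells of the pad, so the presence of Cre and the lack of HIF2α cannot be told apart. TN WT and TN HIF2α AKO mice were kept at 30 °C for 1 week, and cold WT and cold HIF2α AKO mice at 4 to 6 °C for 3 days.

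Immediate early genes are transcribed within minutes of a stimulus without new protein synthesis, and most of their mRNAs are short-lived, so that a single time point catches only what is being made around the time of collection. In fat, cold acts through noradrenaline and β-adrenergic receptors, which raise cAMP and activate PKA. PKA phosphorylates CREB, which binds cAMP response elements and can induce NR4A, Fos and Crem transcripts, whereas ERK and serum response factor drive Fos, Egr1 and Egr2. NR4A proteins are nuclear receptors that act without a known physiological ligand, alone or, for Nr4a1 and Nr4a2, also with retinoid X receptors. Fos and Jun family proteins pair to form AP-1, and Crem gives both activators and, from an internal promoter, the repressor ICER, which shuts cAMP responses off.

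To show where cAMP signalling could meet the 3 NR4A genes, the bases just upstream of the start that RefSeq gives for each of them on GRCm38.p6 were read 5′ to 3′, with capitals marking the core motif TGACG of the cAMP response element or its reverse complement CGTCA. The Nr4a1 window is chr15:101266596-101266845 on the plus strand and lies inside the gene, between exons of its longer transcripts. The Nr4a2 window is chr2:57124004-57124253 on the minus strand. For Nr4a3, on the plus strand, chr4:48045055-48045152 is shown, which ends where the first annotated exon starts.
Nr4a1: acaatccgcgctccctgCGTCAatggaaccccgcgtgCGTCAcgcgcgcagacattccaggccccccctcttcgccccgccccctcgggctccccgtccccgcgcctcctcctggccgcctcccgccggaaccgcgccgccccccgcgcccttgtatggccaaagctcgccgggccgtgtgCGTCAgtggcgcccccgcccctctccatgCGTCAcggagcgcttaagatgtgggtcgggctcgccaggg
Nr4a2: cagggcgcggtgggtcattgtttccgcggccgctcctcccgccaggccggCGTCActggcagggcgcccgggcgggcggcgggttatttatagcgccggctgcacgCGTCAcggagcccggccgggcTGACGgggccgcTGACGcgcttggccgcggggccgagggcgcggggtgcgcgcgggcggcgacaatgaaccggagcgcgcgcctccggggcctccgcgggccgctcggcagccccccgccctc
Nr4a3: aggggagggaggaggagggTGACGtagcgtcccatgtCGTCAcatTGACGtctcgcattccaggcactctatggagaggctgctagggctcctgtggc
Each of the 3 NR4A genes held 4 core motifs in the 250 bases before the RefSeq start, and for Nr4a3 the fourth lay beyond the stretch shown. In Nr4a1 the sites began 233, 213, 69 and 40 bases before the start, in Nr4a2 200, 144, 123 and 111 bases, and in Nr4a3 231, 213, 205 and 147 bases. Over all 32851 windows of 250 bases in the RefSeq table, 17.8% held at least 1 core motif on either strand and 0.137%, or 45 windows, held at least 4. The full palindrome TGACGTCA, which contains a core motif on each strand, was in 0 of the 3 NR4A windows and in 1.55% of all windows. Among the other members with an entry, Fos held 2 core motifs, Fosb and Junb 1 each, Jun 0, and the 5 starts listed for Egr2 between 0 and 2, and 8 of 10 members had an entry. These matches are a description of letters, and none of them was tested for binding. Nr4a2 and its relatives thus held the same number of core motifs in windows of this length.

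Library depth was 22368316 to 35204631 reads assigned to genes. Values per mouse are CPM, read counts scaled to library depth, after TMM factors that correct for differences in library composition. The labelled genotype was checked first on the targeted gene Epas1, which encodes HIF2α. Epas1 was at 360 ± 76.8 CPM (SD, n = 3) in TN WT and 348 ± 53.8 CPM in TN HIF2α AKO mice, and at 627 ± 101 and 826 ± 139 CPM in cold WT and cold HIF2α AKO mice. Lower Epas1 was thus not seen in either HIF2α AKO group. The paper itself reports reduced mRNA of this gene, named Hif2a there, in iWAT of HIF2α AKO mice by RT-qPCR. Counts over a whole gene also hold reads from exons outside the floxed part and from cells that Adipoq-Cre does not reach, and genotypes are given as labelled throughout. White adipocyte markers summed to between 11971 and 48029 CPM per library, with 0 of 10 absent. Transcripts of 10 skeletal muscle markers summed to 1446 CPM in TN HIF2α AKO replicate 2 and 1187 CPM in cold HIF2α AKO replicate 1, and to between 12.9 and 87.0 CPM in the other 10 libraries. Those of 7 epithelial markers summed to 264 CPM in TN WT replicate 3 and to between 3.58 and 11.5 CPM in the others. Values of members that moved strongly without 1 of these 3 libraries are given beside the value from all mice.

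Upon cold exposure, Nr4a2 rose in both genotypes, and it was the only one of the 10 members that passed the test. In TN WT mice Nr4a2 was at 2.98, 2.84 and 4.03 CPM, and in cold WT mice at 5.24, 6.71 and 8.81 CPM. TN HIF2α AKO mice had 2.61, 3.83 and 3.64 CPM, and cold HIF2α AKO mice 11.2, 10.7 and 8.65 CPM. The lowest cold mouse of each genotype thus lay above the highest TN mouse of both (22.7% of all tested genes were higher in cold without overlap in WT and 24.9% in HIF2α AKO mice), and the 3 cold HIF2α AKO mice overlapped the cold WT mice at the lower end only. Group means were 3.28 ± 0.646 and 6.92 ± 1.80 CPM in WT (SD, n = 3), a log2 fold change of 1.08 (SE 0.23) or 2.11-fold, with an adjusted p of 0.00955 in edgeR's quasi-likelihood test. In HIF2α AKO mice the means were 3.36 ± 0.657 and 10.2 ± 1.36 CPM, a log2 fold change of 1.60 (SE 0.23) or 3.02-fold, with an adjusted p of 0.00107 in the same test. Over both genotypes together the change was 1.34 (SE 0.16, adjusted p = 0.000140, edgeR), and an exact two-sided permutation test of temperature within genotype gave p = 0.005, the smallest that its 400 regroupings allow. These values rest on raw counts of 67 to 122 reads per TN library and 117 to 266 per cold library. Nr4a2 (ENSMUSG00000026826) lies at 57106830 to 57124003 on chromosome 2, minus strand, of GRCm38, and is the receptor best known for its role in dopaminergic neurons.

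**Figure D1:**
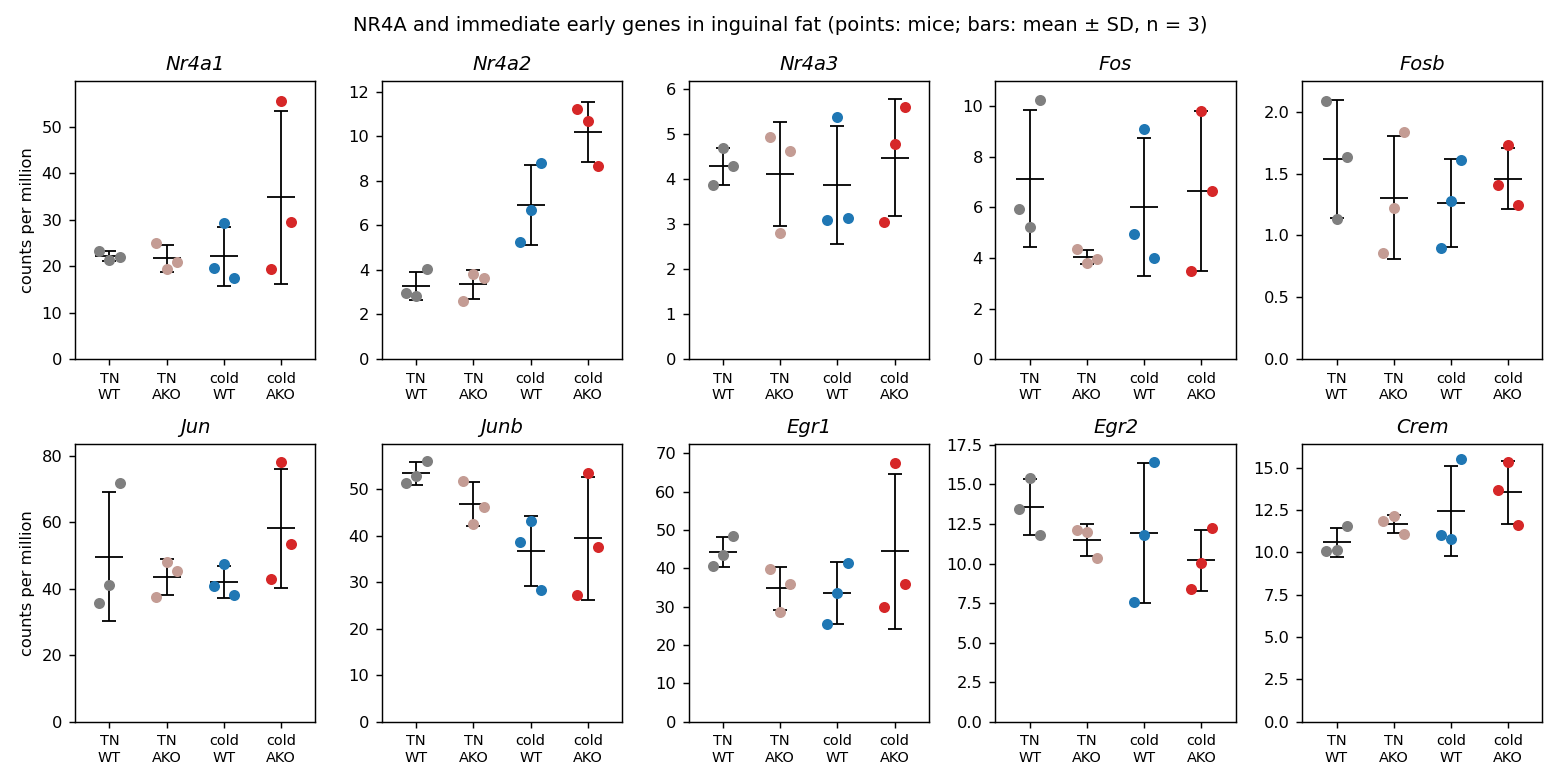
CPM of each of the 10 genes (y axis, linear, from 0) in the 12 mice, by group (x axis). Points are mice, and bars give the mean and SD of 3 mice; every cold mouse lies above every TN mouse for Nr4a2, while for the other 9 genes cold and TN mice overlap in at least 1 genotype.

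A large share of all genes moved with temperature, so the members are read against that background. In WT mice 21.3% of the 15306 tested genes passed an adjusted p under 0.05 for cold against TN (15.6% higher and 5.68% lower), beside 1 of 10 members. In HIF2α AKO mice the background was 27% (15.6% higher and 11.5% lower), beside 1 of 10 members. Over both genotypes it was 48.8% (24.8% higher and 24% lower), and again 1 of 10 members passed. The split of all calls into higher and lower depended on the scaling: it was 2389 to 870 in WT, 2381 to 1757 in HIF2α AKO mice and 3798 to 3669 over both with TMM, and 1861 to 2509, 2070 to 2815 and 2976 to 5382 with upper quartile scaling. The share of members called thus lay below the share of all genes called in each comparison. Their median log2 fold change was -0.21 in WT and 0.28 in HIF2α AKO mice, beside -0.034 and -0.051 for all tested genes, with 2 and 8 of 10 members above 0. These summaries rested on single mice: in WT the median was -0.079 with 4 members above 0 without TN WT replicate 3, -0.067 with 4 without cold WT replicate 1, -0.090 with 3 without cold WT replicate 3, -0.20 with 3 without TN WT replicate 1 and -0.37 with 2 without cold WT replicate 2. The median in HIF2α AKO mice was 0.095 without cold replicate 2 and 0.45 without cold replicate 1.

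**Figure D2:**
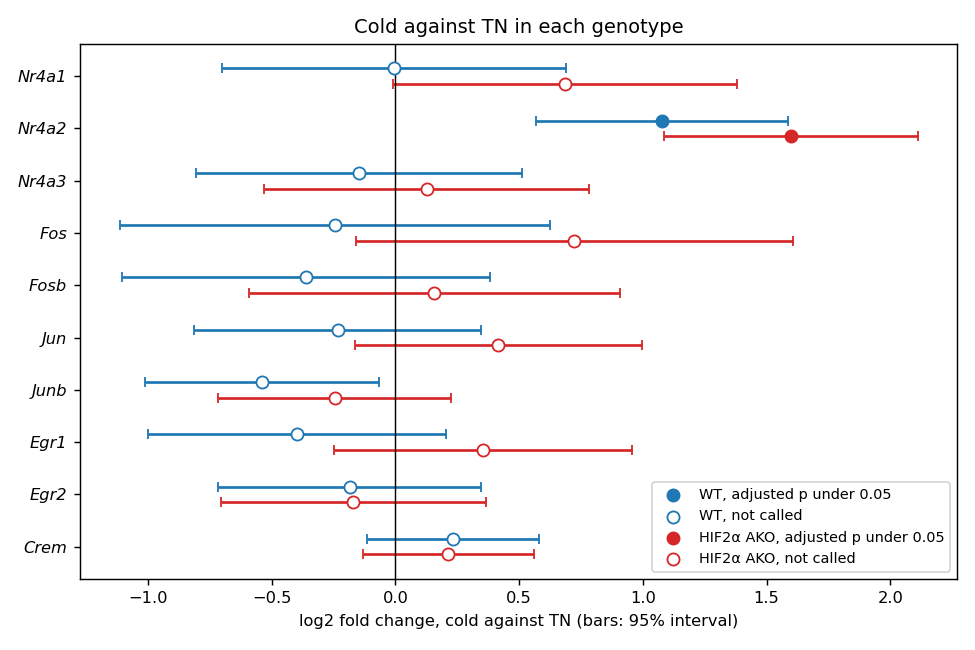
Log2 fold change of cold against TN (x axis) for each gene (y axis) in WT and HIF2α AKO mice, with the 95% interval of the edgeR fit. Filled points passed an adjusted p under 0.05, which holds for Nr4a2 in both genotypes, at 1.08 and 1.60, and for no other gene drawn.

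Nr4a1, also called Nur77, is an NR4A gene that β-adrenergic signals are known to induce quickly in fat and muscle, and its values did not follow those of Nr4a2. TN WT mice had 23.3, 21.3 and 21.9 CPM, and cold WT mice 19.6, 29.2 and 17.5 CPM. TN HIF2α AKO mice had 24.9, 19.3 and 20.9 CPM, and cold HIF2α AKO mice 19.4, 55.5 and 29.5 CPM. The TN mice lay within a narrow band, whereas cold HIF2α AKO mice ranged from the lowest TN level to the highest value of all. The log2 fold change was -0.0056 in WT (95% interval -0.70 to 0.69) and 0.69 in HIF2α AKO mice (interval -0.0097 to 1.38, adjusted p = 0.121, edgeR). The latter rested on single mice: without cold HIF2α AKO replicate 2 it was 0.18 (adjusted p = 0.608), and without replicate 1, which has the muscle transcripts, 0.97 (adjusted p = 0.0444). Nr4a1 lies at 101254269 to 101274795 on chromosome 15, plus strand, of GRCm38.

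Nr4a3, also called Nor1, was the lowest of the NR4A genes per kb of exon, averaged over all mice. Its level was 3.87, 4.70 and 4.30 CPM in TN WT and 3.09, 5.38 and 3.14 CPM in cold WT mice. In HIF2α AKO mice it was 4.95, 2.79 and 4.63 CPM in TN and 3.05, 4.78 and 5.61 CPM in cold. The groups overlapped in both genotypes, with log2 fold changes of -0.15 (interval -0.80 to 0.51) and 0.13 (interval -0.53 to 0.78), and neither was called. The sign in HIF2α AKO mice turned on single mice, since the value was -0.092 without TN replicate 2 and -0.068 without cold replicate 3. It was 0.34 without cold replicate 1, which like TN replicate 2 has the muscle transcripts. In WT the value was -0.49 without cold replicate 2, and -0.0087 and -0.015 without cold replicates 1 and 3. The estimates for Nr4a2 in the same genotype lie outside the intervals from all mice. Nr4a3 lies at 48045153 to 48086447 on chromosome 4, plus strand, of GRCm38.

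Since the 3 receptors bind related DNA elements, their balance within each mouse was compared as well, which cancels the depth of a library. The log2 CPM of Nr4a2 minus that of Nr4a1 was -2.71 ± 0.35 in the 6 TN mice and -1.65 ± 0.63 in the 6 cold mice (SD), a difference of 1.06. Against Nr4a3, the balance moved from -0.33 ± 0.48 to 1.03 ± 0.57, a difference of 1.35. In TN mice Nr4a3 had the higher CPM in 5 of 6 libraries, and in cold Nr4a2 had it in 6 of 6. Cold and TN mice overlapped slightly in both ratios, because the lowest cold value was -2.37 beside a highest TN value of -2.31 for Nr4a1, and 0.31 beside 0.44 for Nr4a3. All 9 ratios of Nr4a2 to another member were computed, and the differences ran from 1.06 for Nr4a1 to 1.75 for Junb. Nr4a2 was taken as the numerator after its rise was seen, so these ratios restate that rise and are given as a description, with no test.

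**Figure D3:**
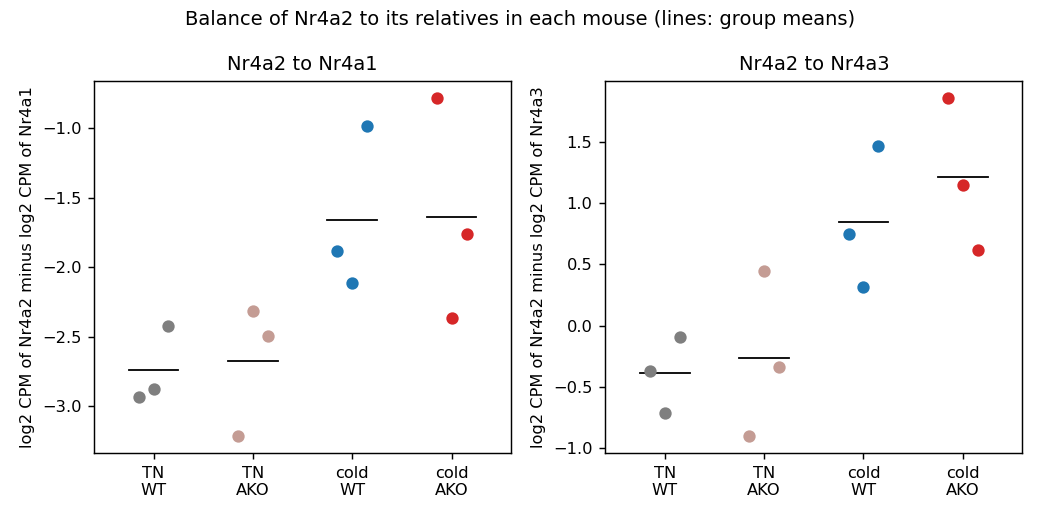
Log2 CPM of Nr4a2 minus log2 CPM of Nr4a1 (left) or Nr4a3 (right) on the y axis for each mouse, by group on the x axis; lines are group means. In both panels the cold mice lie above the TN mice except for 1 cold mouse each at the edge of the TN range.

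None of the 4 AP-1 genes among the members was called upon cold exposure. Junb, which encodes a Jun family protein that can restrain cell division, had lower values in cold. It was at 51.2, 52.9 and 55.9 CPM in TN WT and 38.6, 43.2 and 28.3 CPM in cold WT mice, so that every cold WT mouse lay below every TN WT mouse (19.3% of all tested genes did the same). In HIF2α AKO mice it was at 51.7, 42.4 and 46.2 CPM in TN and 27.3, 53.4 and 37.5 CPM in cold, and these groups overlapped through cold replicate 2. The log2 fold change was -0.54 (SE 0.21, adjusted p = 0.0902) in WT, -0.25 (SE 0.21, adjusted p = 0.40) in HIF2α AKO mice and -0.39 (SE 0.15, adjusted p = 0.0509) over both, all from edgeR, so Junb was just short of a call. The value in HIF2α AKO mice was -0.041 without cold replicate 1 and -0.53 without cold replicate 2. An exact permutation test of Junb within genotype gave an unadjusted p of 0.035. Its side of the threshold turned on small choices: over both genotypes the adjusted p was 0.0485 with RLE scaling, 0.035 in DESeq2, 0.00859 when cold HIF2α AKO replicate 2 was left out and 0.0319 when cold WT replicate 2 was. It moved the other way to 0.0933 without cold HIF2α AKO replicate 1 and 0.0816 without TN WT replicate 3, and 6 of 19 alternatives called Junb over both genotypes. In WT alone the adjusted p was 0.0488 and 0.0486 in edgeR without cold HIF2α AKO replicates 1 and 2, and 3 of 20 alternatives called it. The log2 fold change in WT was -0.38 without cold WT replicate 3. Junb lies at 84974484 to 84978718 on chromosome 8, minus strand, of GRCm38, where it overlaps Prdx2 on the other strand. Prdx2 itself rose by 0.70 on the log2 scale over both genotypes, and because the strand setting of the counting is not given in the sources used here, reads of this overlap cannot be told apart.

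Jun, the partner of Fos proteins in AP-1, was at 35.8, 41.2 and 71.8 CPM in TN WT and 40.9, 47.5 and 38.1 CPM in cold WT mice. It was at 37.6, 48.1 and 45.3 CPM in TN HIF2α AKO and 43.1, 78.0 and 53.6 CPM in cold HIF2α AKO mice. Single mice stood out at the top, namely TN WT replicate 3, which has the epithelial transcripts, and cold HIF2α AKO replicate 2. Log2 fold changes were -0.23 in WT, 0.42 in HIF2α AKO mice and 0.092 over both (95% interval -0.32 to 0.50), and none was called. Without TN WT replicate 3 the value in WT was 0.13, with the sign turned, and without cold HIF2α AKO replicate 2 that in HIF2α AKO mice was 0.15. Leaving out the 3 libraries with muscle or epithelial transcripts raised the value over both genotypes to 0.40, with an adjusted p of 0.0389 in edgeR. Jun lies at 95049034 to 95052222 on chromosome 4, minus strand, of GRCm38. There it overlaps Junos on the other strand, which is not among the counted genes, and reads of that overlap cannot be told apart either.

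Fos, the founding immediate early gene, was low and scattered. It was at 5.93, 5.24 and 10.2 CPM in TN WT and 4.97, 9.10 and 3.98 CPM in cold WT mice. TN HIF2α AKO mice had 4.36, 3.80 and 3.96 CPM and cold HIF2α AKO mice 3.49, 9.81 and 6.65 CPM. TN HIF2α AKO mice were the only group with close values, and in the others 1 mouse was about as high as the rest together. The log2 fold change for cold was -0.25 in WT (interval -1.11 to 0.62) and 0.72 in HIF2α AKO mice (interval -0.16 to 1.61), and without cold HIF2α AKO replicate 2 the latter was 0.33, and 1.03 without replicate 1. The value in WT turned to 0.10 without TN WT replicate 3, and was -0.70 and -0.018 without cold WT replicates 2 and 3. Neither was called by edgeR, with adjusted p-values of 0.663 and 0.188. Fos lies at 85473890 to 85477273 on chromosome 12, plus strand, of GRCm38.

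Fosb, a relative of Fos with a more stable splice form known from repeated stimulation of neurons, was the lowest member, with raw counts of 20 to 82 reads per library. Its level was 2.09, 1.13 and 1.64 CPM in TN WT, 0.857, 1.22 and 1.84 CPM in TN HIF2α AKO and 0.895, 1.28 and 1.61 CPM in cold WT mice. Cold HIF2α AKO mice had 1.40, 1.73 and 1.24 CPM, inside the range of the other groups. The log2 fold change over both genotypes was -0.10 (interval -0.63 to 0.43) and was not called. Fosb lies at 19302696 to 19310051 on chromosome 7, minus strand, of GRCm38.

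Egr1 and Egr2 encode zinc finger factors, and Egr2 acts early in the formation of adipocytes. Egr1 was at 40.7, 43.6 and 48.4 CPM in TN WT and 25.4, 33.7 and 41.5 CPM in cold WT mice. In HIF2α AKO mice it was at 39.8, 28.7 and 36.0 CPM in TN and 29.9, 67.5 and 36.0 CPM in cold, where replicate 2 held the highest value of all 12 mice. Its log2 fold changes of -0.40 and 0.36 pointed in different directions in the genotypes, and without that mouse the second was -0.078, and 0.57 without replicate 1. Egr2 was at 13.5, 15.4 and 11.8 CPM in TN WT and 12.1, 12.0 and 10.4 CPM in TN HIF2α AKO mice. In cold, WT mice had 7.56, 11.8 and 16.5 CPM and HIF2α AKO mice 8.38, 10.0 and 12.2 CPM. The cold WT mice spanned the whole range of Egr2, from its lowest to its highest value, and its log2 fold change of -0.18 in WT was 0.058 without cold WT replicate 1 and -0.49 without replicate 3. The log2 fold change of Egr2 was -0.18 over both genotypes (interval -0.55 to 0.20), and neither gene was called. Egr1 lies on chromosome 18 at 34859823 to 34864984, plus strand, and Egr2 on chromosome 10 at 67535475 to 67542188, plus strand, of GRCm38.

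Crem, the cAMP response element modulator, was the steadiest member. It was at 10.1, 10.1 and 11.6 CPM in TN WT and 11.0, 10.8 and 15.5 CPM in cold WT mice. HIF2α AKO mice had 11.8, 12.1 and 11.1 CPM in TN and 13.7, 15.3 and 11.6 CPM in cold. The highest cold mouse lay above the TN mice in both genotypes, yet the groups overlapped. In WT only cold replicate 3 lay above every TN mouse, and without it the log2 fold change in WT was 0.043. From all mice the log2 fold change was 0.23 in WT, 0.21 in HIF2α AKO mice and 0.22 over both (SE 0.11, adjusted p = 0.117, edgeR), and limma voom with sample quality weights gave 0.22 with an adjusted p of 0.0425. Its 95% interval was -0.022 to 0.47, which a change of 1 on the log2 scale exceeds. The annotation gives Crem 39 transcripts between 3266048 and 3337748 on chromosome 18, minus strand, of GRCm38. Counts per gene do not separate the repressor ICER from the activators. Crem overlaps Gm6225 on the other strand, so the unknown strand setting limits its counts as it does those of Junb.

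Compared per length of exon, the members spanned a wide range of levels. The mean CPM per kb over all 12 mice was 19.1 for Junb, 15.2 for Jun, 8.76 for Egr1 and 7.18 for Nr4a1. Lower down, it was 3.47 for Egr2, 2.53 for Fos, 2.04 for Crem, 1.46 for Nr4a2, 0.700 for Nr4a3 and 0.226 for Fosb. Most neighbours in that order overlapped over the mice. The exceptions were Nr4a1 against Egr2, with a lowest Nr4a1 level of 4.98 and a highest Egr2 level of 4.84 CPM per kb, and Nr4a3 against Fosb, with 0.467 and 0.334. On this scale Nr4a2 moved from 0.809 ± 0.159 to 1.70 ± 0.443 CPM per kb in WT and from 0.828 ± 0.162 to 2.51 ± 0.335 in HIF2α AKO mice (SD, n = 3). Its highest group mean thus remained below those of Nr4a1, the lowest of which was 6.18 ± 0.821 CPM per kb, in TN HIF2α AKO mice.

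The genotype comparison asks whether adipocyte HIF2α alters these genes. In cold, 0 of 10 members passed for HIF2α AKO against WT, beside 0.00653% of all tested genes in edgeR. DESeq2 and limma voom called 0 members as well, and at an unadjusted p under 0.05 edgeR had 1 of 10 members beside 2.95% of all genes. That member was Nr4a2, with a log2 difference of 0.56 (SE 0.23, 95% interval 0.059 to 1.06), an unadjusted p of 0.0316 and an adjusted p of 1.00 in edgeR. Nr4a1 differed by 0.66 (interval -0.038 to 1.35), which was 0.15 without cold HIF2α AKO replicate 2. The member median was 0.21 with 9 of 10 above 0, beside -0.022 for all genes. Without cold HIF2α AKO replicate 2 it was 0.043 with 6 of 10 above 0, without replicate 1 it was 0.44 with 9, and without cold WT replicate 1, 2 or 3 it was 0.11, 0.50 and 0.36. In cold, 0 of 10 members had groups without overlap, beside 7.53% of all genes.

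At TN, 0 of 10 members passed in edgeR, beside 0.00653% of all tested genes, and 0 of 10 had an unadjusted p under 0.05, beside 2.91%. DESeq2 and voom called 0 members. Fos and Egr1 were lower in each TN HIF2α AKO mouse than in each TN WT mouse, which held for 4% of all tested genes. The log2 difference of Fos was -0.82 (SE 0.40, unadjusted p = 0.0645, adjusted p = 0.999, edgeR), and -0.47 without TN WT replicate 3. For Egr1 it was -0.34 (interval -0.94 to 0.26). Nr4a2 differed by 0.038 (interval -0.48 to 0.55).

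The test of the difference between the cold responses themselves, the interaction of genotype and temperature, called 0 of 15306 genes in edgeR, and 0 of 10 members had an unadjusted p under 0.05, beside 2.14% of all genes. DESeq2 and voom called 0 members here too. The estimated response of Nr4a2 was 0.52 higher in HIF2α AKO than in WT mice on the log2 scale, with an interval of -0.20 to 1.24 and an unadjusted p of 0.138 in edgeR. The difference was 0.97 for Fos, 0.75 for Egr1 and 0.69 for Nr4a1. Without cold HIF2α AKO replicate 2 it was 0.58 for Fos, 0.32 for Egr1 and 0.18 for Nr4a1, and without TN WT replicate 3 it was 0.62 for Fos. A larger cold response of these genes in either genotype was therefore not shown.

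Members differed in how much they varied between mice of a group. The residual SD of log2 CPM within groups was 0.55 for Fos, higher than in 90.5% of tested genes, 0.44 for Nr4a1 (83.2%) and 0.41 for Fosb (80.1%). Nr4a2 had 0.29 (63.3%), Junb 0.30 (65.1%) and Crem 0.19 (42.6%), beside a median of 0.22 over all tested genes. Deviations ran together over members in more than 1 group, and within a group of 3 mice they offset each other. Cold WT replicate 1 was above its group mean for 1 of 10 members and cold WT replicate 2 for 8. TN WT replicate 3 was above its group mean for 8 and the highest of its group for 6. Cold HIF2α AKO replicate 2 was the highest of its group for 7 of 10 members, with a median deviation of 0.36 on the log2 scale. It was the highest of all libraries for 3 of them, Nr4a1, Jun and Egr1. Replicate 1 of the cold HIF2α AKO group was the lowest of that group for 7 members, with a median deviation of -0.43. Nr4a2 did not follow, since replicate 1 held its highest value and replicate 2 was close behind. The sum of 31 other immediate early genes was also highest in replicate 2 of that group, at 1509 CPM beside 1195 and 1397 CPM, whereas its muscle and epithelial marker sums lay within the low ranges given above. What set this mouse apart was not tested.

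**Figure D4:**
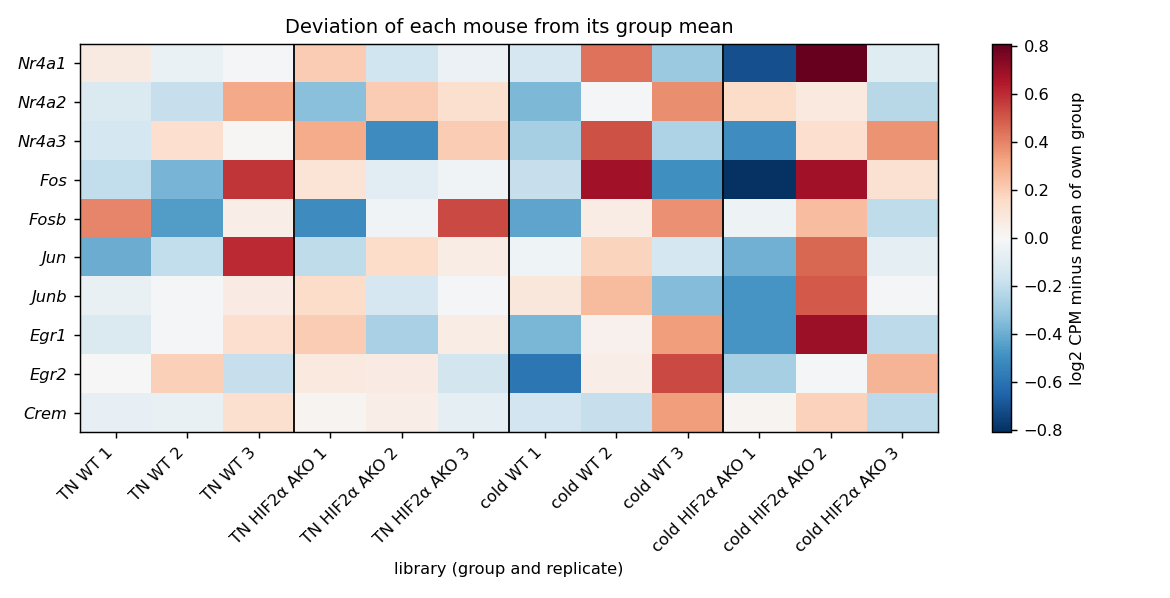
Colour gives the log2 CPM of each gene (y axis) in each library (x axis) minus the mean of its own group, from blue (lower) to red (higher). Cold HIF2α AKO replicate 2 is red for 9 of 10 genes, and replicate 1 of the same group is blue for 8 of 10.

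The genes whose log2 CPM followed each member most closely over the 12 libraries are given as a description, since these libraries share groups and depth. For Nr4a1 they were Rnd1 (Pearson r = 0.956), Rps6kb2 (0.832) and Atf3, a stress-induced AP-1 partner (0.806). For Nr4a2 they were Otud6b (0.986), Fam136a (0.984) and Them4 (0.983). Junb was followed by Rasgef1b (0.932), Avpr1a (0.930) and Zfp36, which encodes an mRNA decay factor and is itself an immediate early gene (0.928). Fos had lower values, led by Crispld2 (0.858), as had Egr1, led by Hunk (0.835), and Jun, led by Cast (0.880). The closest to Crem was Ttc32 (0.953), to Egr2 Bcl9 (0.876), to Nr4a3 Myrf (0.874) and to Fosb Gm13476 (0.868). No member was among the 3 closest genes of another member.

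Other genes of the same pathways were read from lists, for cold against TN over both genotypes. Among 10 cAMP-induced genes of adipocytes 9 were tested, of which 7 rose and 1 fell, with a median log2 fold change of 1.98 beside -0.052 for all genes. The called share was 88.9% of this list, beside 48.8% of all tested genes (24.8% higher and 24% lower). Ucp1, the uncoupling protein of thermogenic fat, rose by 11.99 (SE 0.56) on the log2 scale, as are all values of single genes that follow, and Dio2, which activates thyroid hormone, by 7.81 (SE 0.35). Ppargc1a, the coactivator of mitochondrial biogenesis, rose by 2.76 (SE 0.24), and Gadd45g by 1.98 (SE 0.15). These genes rose in the same mice in which Fos, Egr1, Nr4a3 and Crem were not called. Whether cAMP signalling was active at the time of collection was not tested. The single call of a fall was lost without TN WT replicate 1 or 2, TN HIF2α AKO replicate 1, cold WT replicate 3 or cold HIF2α AKO replicate 1.

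Among 31 tested other immediate early genes, 5 rose and 11 fell, with a median of -0.23. Trib1, a pseudokinase, rose by 1.13 (SE 0.13) and Dusp1, a phosphatase that switches MAP kinases off, by 0.98 (SE 0.13). Btg2, an antiproliferative gene, changed by -0.74 (SE 0.14) and Zfp36l1, an mRNA decay factor, by -0.42 (SE 0.072), both falls that passed the test. The falls were 7 without TN HIF2α AKO replicate 1 or 3 or cold HIF2α AKO replicate 1, and the rises were 3 without TN WT replicate 2. With upper quartile scaling 3 of these genes rose and 13 fell. Of 9 tested other AP-1 genes, 2 rose, Atf2 by 0.45 (SE 0.063) and Jdp2 by 0.30 (SE 0.079), and 2 fell, Batf with -0.53 (SE 0.16) and Jund with -0.28 (SE 0.096), with a median of 0.0066. Without TN WT replicate 3, TN HIF2α AKO replicate 1 or 3, cold WT replicate 3 or cold HIF2α AKO replicate 1, 1 of these falls was called. With upper quartile scaling, 3 of these AP-1 genes fell and 2 rose. The called share was 51.6% of the immediate early list and 44.4% of the AP-1 list, near the 48.8% of all tested genes, and upper quartile scaling shifted all genes towards falls as well.

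Upstream of the members, 1 of 9 genes of CREB and its coactivators rose, Sik3, a kinase that restrains CREB coactivators, by 0.25 (SE 0.056), and 5 fell, with a median of -0.17. Creb1 itself changed by -0.46 (SE 0.069), Crtc3 by -0.26 (SE 0.069) and Ep300 by -0.30 (SE 0.092), and 3 of the falls were called without TN WT replicate 1 or 2, TN HIF2α AKO replicate 3 or cold HIF2α AKO replicate 1 or 2. Of 19 genes of the ERK and SRF pathway, 5 rose and 3 fell, with a median of 0.022. Map2k2, which encodes the ERK kinase MEK2, rose by 0.60 (SE 0.067), Dusp4 by 1.45 (SE 0.22) and Dusp6 by 0.44 (SE 0.084), both of them ERK phosphatases, and Elk4, a partner of SRF, changed by -0.72 (SE 0.12). With upper quartile scaling, 0 of the CREB genes rose and 6 fell, and 4 of the ERK and SRF genes rose and 8 fell. Among the retinoid X receptors, Rxrg rose by 1.12 (SE 0.16) and Rxra by 0.29 (SE 0.11), and Rxrb, at 0.12 (SE 0.060), was not called. The call of Rxra was lost under 11 of 19 alternatives. The called share was 66.7% of the CREB list and of the retinoid X receptors, and 42.1% of the ERK and SRF list. Of all tested genes, 48.8% were called, so the share of the ERK and SRF list lay below that of all genes.

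**Figure D5:**
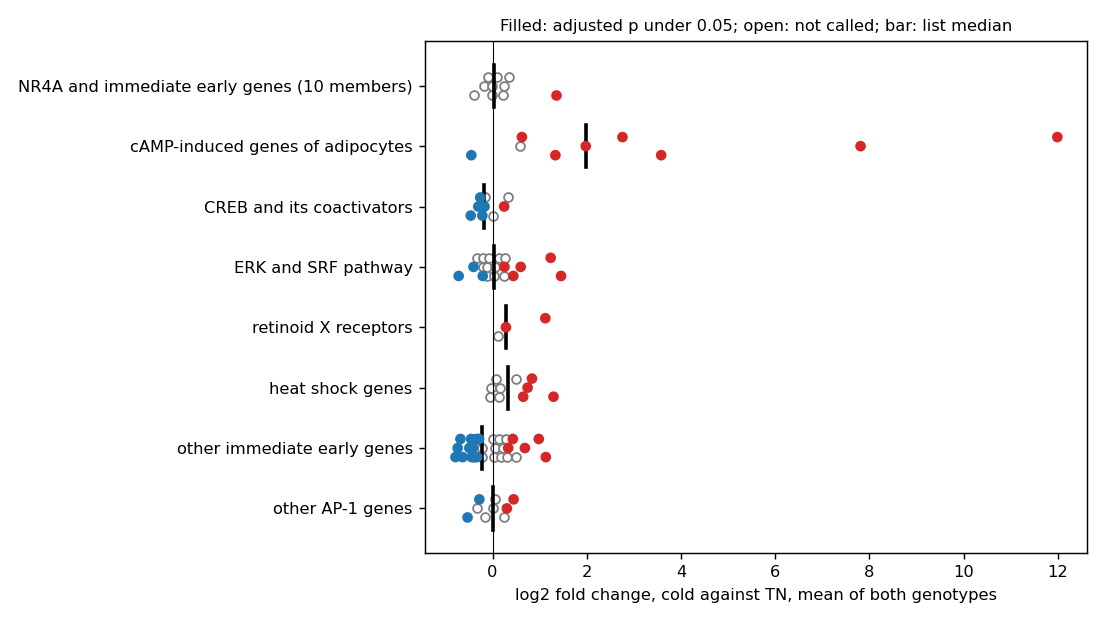
Log2 fold change of cold against TN over both genotypes (x axis) for the 10 members and the genes of 7 lists (y axis, 1 row each, points shifted up or down for sight). Filled points passed an adjusted p under 0.05, red higher and blue lower, open points did not, and bars are medians, from -0.23 for other immediate early genes to 1.98 for cAMP-induced genes.

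Markers of other cell types were read for cold against TN over both genotypes, beside 48.8% of all tested genes called. The called share was 70% of white adipocyte and 80% of lymphocyte markers. It lay below that of all genes for macrophage (33.3%), heat shock (40%), endothelial (25%), epithelial (14.3%) and muscle (0%) genes. White adipocyte markers had 7 of 10 genes that rose and 0 that fell (median 0.85), and their sum lay between 11971 and 29563 CPM in TN and between 24606 and 48029 CPM in cold mice. Of 10 lymphocyte markers 8 fell (median -0.57), with sums of 1114 to 1848 CPM in TN and 658 to 1157 CPM in cold. Of 9 tested macrophage markers 3 fell (median -0.36). By genotype, 0 of these 9 were called in WT (median -0.042), beside 21.3% of all tested genes. In HIF2α AKO mice 2 of them fell (median -0.68), beside 27% of all tested genes called. The called share of white adipocyte markers was 50% in WT and 20% in HIF2α AKO mice. That of lymphocyte markers was 10% in WT and 20% in HIF2α AKO mice. By genotype, only the white adipocyte share in WT thus lay above that of all tested genes. Over both genotypes, falls of lymphocyte markers were 5 without TN HIF2α AKO replicate 1 or 3 or cold WT replicate 3. They were also 5 without cold HIF2α AKO replicate 1 or 2. Falls of macrophage markers were 1 without TN WT replicate 1 or 2, TN HIF2α AKO replicate 1 or 3 or cold HIF2α AKO replicate 1 or 2. Of 8 endothelial markers 2 rose (median 0.11; 1 rose and 1 fell with upper quartile scaling), 0 of 10 muscle markers was called, and 1 of 7 epithelial markers fell. Among 10 heat shock genes, which respond to heat and other protein stress, 4 rose and 0 fell (median 0.33), with Hspd1 at 1.29 (SE 0.17) and Hspa8 at 0.74 (SE 0.11). In whole tissue, fewer cells of a type and less RNA per cell cannot be told apart, and the part of these shifts in the values of Nr4a2 and Junb was not tested.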

How the data were processed

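Total RNA of iWAT was sequenced from 12 mice in 4 groups of 3, assigned by their labels. Per the labels and the paper's methods, the authors trimmed reads with Trim Galore 0.4.4, aligned them with STAR 2.6.1d to GRCm38 and counted reads per gene with HTSeq 0.13.5, and the deposited values are raw whole-number counts. The annotation and strand setting are not given in the sources used here. Tallies of reads outside genes, 21.9 to 27.0% of the listed reads, were left out. The counts were analysed in R 4.3.3 with edgeR 4.0.16, using filterByExpr (minimum count 10, total 15), TMM factors (0.829 to 1.20) and a quasi-likelihood model of 4 groups, with Benjamini-Hochberg adjustment over 15306 genes and a limit of 0.05. The biological coefficient of variation was 0.202. Log2 CPM used a prior count of 2. Standard errors were derived from the F statistic. Alternatives were RLE and upper quartile scaling, no filter, DESeq2 1.42.0, limma 3.58.1 voom with sample quality weights, only the 2 groups compared, a replicate block, and each library left out. The procedure was tested on simulated data. The edgeR p-values set a difference between groups against the spread between mice, estimated over all 4 groups together. The 3 libraries of a group differed beyond sampling noise. Positions and exonic lengths came from GENCODE M21 and upstream bases from RefSeq.

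The text gives all 10 members in every library, at most 4 genes of each list by smallest p for cold over both genotypes, and the 3 genes nearest to a member by Pearson r. Prdx2 was named for its overlap with Junb, after its values were seen, and Gm6225 and Junos for their overlap with Crem and Jun. The members and lists were chosen with earlier results of these data known. Fosl1, Egr4, Areg, Adgre1 and Csn3 of the lists did not pass the filter.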

Additional observations from a re-analysis of the deposited data

How the results depend on the processing

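Nr4a2 was called in cold under every alternative run, with log2 fold changes of 0.87 to 1.25 in WT, 1.45 to 1.70 in HIF2α AKO mice and 1.23 to 1.42 over both when single libraries were left out, the highest adjusted p being 0.0469, in WT without TN WT replicate 2. The number of members called rose from 1 to 2 in WT under upper quartile scaling (Junb), in HIF2α AKO mice under voom (Nr4a1), and over both genotypes under RLE scaling, upper quartile scaling, no filter and DESeq2 (Junb), under voom (Crem), and, chosen after seeing the data, without the 3 libraries with muscle or epithelial transcripts (Jun). Calls over all genes went from 3259 to 4370 in WT under upper quartile scaling, and from 4138 to 6140 in HIF2α AKO mice under voom. Over both genotypes they went from 7467 to 8358 with upper quartile scaling, 8084 with DESeq2 and 8363 with voom. They were 7465 with RLE scaling, 7157 with no filter and 6704 without the 3 libraries. Leaving out single libraries gave 1 to 2 members called in each of these 3 comparisons. In the genotype comparisons and the interaction it gave 0 to 0. Upper quartile scaling moved the median of all genes over both genotypes from -0.052 to -0.16, and Junb from -0.39 to -0.50, so relative to that median Junb changed little. Of 1176 values of members under alternatives, 1163 stayed on the same side of the threshold, 13 became calls, 0 calls were lost, and 69 uncalled values changed sign. Calls over all genes fell from 3259 to 1381 in WT without TN WT replicate 2 and from 4138 to 1613 in HIF2α AKO mice without cold HIF2α AKO replicate 1. Equal replicate numbers were not taken as pairs, and 5 of 18 such pairs had deviations correlated above 0.1 (-0.54 to 0.55). Among them were replicates 2 and 3 of TN WT and cold WT, at 0.55 and 0.52. Pairs of unequal numbers were not computed for reference, so these values cannot decide whether mice were paired. The replicate block kept 1 member called in each cold comparison and 0 in the others. Fosb had the fewest reads of the members, and counting error and the spread between mice were not separated.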
